A study of Drosophila melanogaster with 26 samples.

Results

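The transcripts described here rose late in primordial germ cells (PGCs, the founder cells of the germ line) of both wild-type and smaug-mutant Drosophila melanogaster embryos. They were chosen by their own values, on the log2 scale of the array signal. Their mean signal rose by at least 1, which is 2-fold, from 3–5 h to 5–7 h in wild-type PGCs (replicates 1 and 2 of the later time point) and in smaug-mutant PGCs. It rose by less than 1 from 1–3 h to 3–5 h in wild type and reached at least 8.5 in wild type at 5–7 h. Of 16623 FlyBase transcripts on the array, 185 (1.11%) met all of these conditions. A gene name could be given to 78 of them, from 75 genes, and the other 107 are counted without a name. RNA was measured in 26 samples of 7 groups. Wild-type PGCs of each of the 3 ages, and somatic cells of the youngest age, had 4 biological replicates. The mutant PGCs had 3, 3 and 4 replicates from the youngest to the oldest age. PGCs were the GFP-positive cells sorted from embryos that carry a VASA-GFP transgene, and the somatic cells were the GFP-negative cells of the same sort. Besides w1118, the stocks listed are VASA-GFP/CyO ; PrDr/TM3,Sb, the smaug allele stock VASA-GFP/CyO ; smg1/TM3,Sb, and the deficiency stock Df(3L)Scf-R6/TM3,Sb. The methods write the mutant as smg1/Df. The labels of a sample say only wild type or smaug mutant, and each sample pooled cells from many embryos.

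PGCs form at the posterior pole of the embryo and take up maternal RNA and protein of the germ plasm. They keep their own genome silent while the somatic cells begin to transcribe, and transcribe only later, as they migrate towards the gonad. Smaug is an RNA-binding protein, made from maternal mRNA, that directs the clearance and the translational repression of maternal transcripts. A level at any time is the balance of maternal RNA that is left and RNA newly made, and an array signal does not separate these.

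In wild type at 5–7 h, replicates 3 and 4 stood apart from replicates 1 and 2. Over all transcripts, samples of that group correlated with a Spearman's rho of 0.87 to 0.97, against at least 0.94 within every other group. The summed signal of 11 somatic marker genes was 66.8% to 68% of its mean in somatic cells in replicates 3 and 4, and 11% to 14.3% in replicates 1 and 2. For 10 PGC marker genes it was 29.0% to 35% and 71.0% to 72.6% of the mean in 1–3 h PGCs. Replicates 3 and 4 did not enter the choice of the transcripts. Their values are given apart from replicates 1 and 2, and only for some of the named genes. Counts that use all 4 replicates say so. In smaug-mutant PGCs at 5–7 h the somatic marker sum was 2.89% to 5.21%, and the PGC marker sum was 91.9% to 111% of the wild-type 1–3 h mean. The 10 PGC markers, among them nos, vas, osk and pgc, had mean log2 signals of at least 9.94 in every PGC group without replicates 3 and 4. By the labels, all PGC samples were labelled with Cy5 except smaug at 3–5 h (Cy3), and the somatic samples with Cy3. Dye and time therefore cannot be told apart in the early or the late step of smaug. Nor can dye and genotype at 3–5 h, or dye and cell type between PGCs and somatic cells. The wild-type time points share 1 dye. The methods instead assign Cy3 to wild type and Cy5 to the mutant.

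The late rise itself was what chose the transcripts, so its size is a description. Across the 185 transcripts it ran from 1.00 to 3.71 on the log2 scale in wild type, with a median of 1.53, and from 1.02 to 4.50 in smaug, with a median of 1.44. Both late wild-type samples were above all 4 samples at 3–5 h for 178 transcripts. All 4 late smaug samples were above the 3 at 3–5 h for 164, and 160 were separated in both genotypes. The rise was larger in wild type for 101 and larger in smaug for 84, and the 2 rises differed by less than 0.5 for 110. For 14 transcripts the wild-type rise exceeded the smaug rise by 1 or more, and for 13 the reverse held. Of all transcripts, 1153 rose by at least 1 in wild type and 1413 in smaug, and 370 did so in both. By limma, at an adjusted p of 0.05 and more than 2-fold, 132 of the 185 were called higher in wild type (replicates 1 and 2) and 153 in smaug. Among all transcripts tested, 4.38% and 6.03% were called. None of the 185 was called lower in either, at an unadjusted p under 0.05 also 0 by limma, against 3.25% and 6.25% of all transcripts. With all 4 wild-type replicates, limma called 45 higher (1.43% of all transcripts) and 0 lower (1.52%). These counts restate the choice.

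**Figure D1:**
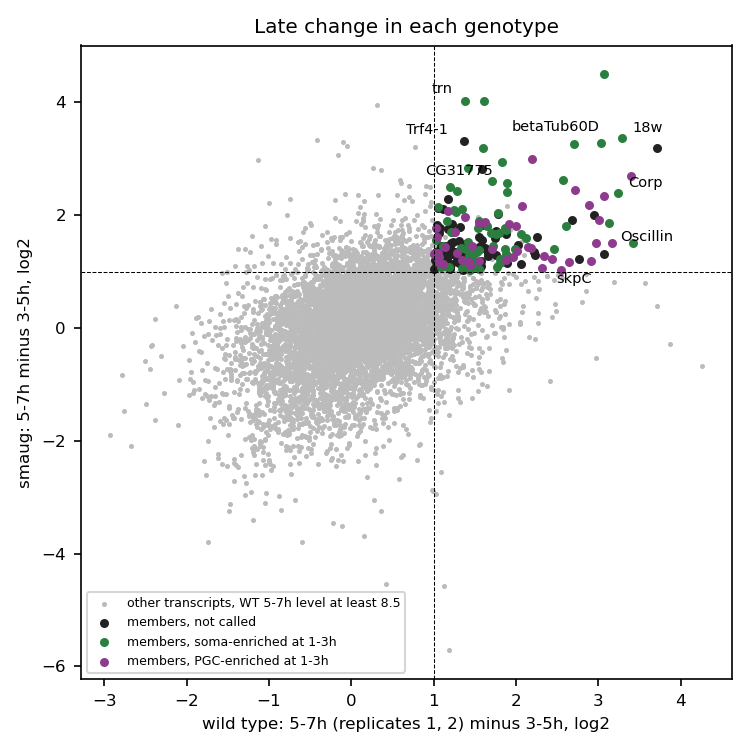
Late change in wild type (x axis, mean of replicates 1 and 2 at 5–7 h minus the 3–5 h mean) and in smaug (y axis, 5–7 h minus 3–5 h), in log2 units, for transcripts with a wild-type 5–7 h signal of at least 8.5. The 185 chosen transcripts lie beyond both dashed lines at 1 and are coloured by the comparison of 1–3 h PGCs with somatic cells, and other transcripts (grey) beyond both lines had an early wild-type rise of 1 or more.

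At the edge of the choice, Alr (wild-type rise 1.0004) and CG9630 (1.002) were just inside, and PGRP-SB1 (0.99) and Jabba (0.99) just outside. For the smaug rise mRpS2 (1.02) was just inside and a second transcript of Dredd (0.98) and wkd (0.96) just outside. On the early limit, RabX4 (0.87) and trn (0.84) were inside, and CG5840 (1.05) and a histone H3 copy, His3:CG33818 (1.05), outside. On the level limit the named neighbours were Taspase1 (8.54) and CG8468 (8.61) inside and CG17834 (8.11) and CG42342 (6.84) outside. With any 1 of the samples left out of the choice in turn, 96 of the 185 were chosen every time, from 42 named genes. These included 18w, Corp, wgn, Traf4, pxb, betaTub60D, Oscillin, CG14346, mtsh and mRpS24. Genes described below that left the set in at least 1 such run included trn, skpC, CG31775, Trf4-1, RpL6, CG9399, Alr, Dic1, mRpS2, Efr, e(y)1 and Ant2. Another 2 of 371 features with CG numbers and 2 of 116 with CR numbers met the same conditions and were not among the 185.

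The earlier course varied. The choice keeps out early wild-type rises of 1 or more and favours low 3–5 h signals in both genotypes. Early falls, here and in the genes below, are therefore in part set by the choice. Their share over all transcripts is not given. In wild type, 52 transcripts first fell by 1 or more from 1–3 h to 3–5 h, and the other 133 changed by less than 1. In smaug, 52 also fell by 1 or more, 118 changed by less than 1 and 15 rose by 1 or more. By the labels, the dye also changed in this smaug step, here and in the genes below. The fall was present in both genotypes for 28, and for 23 the wild-type level fell while the smaug level changed by less than 1. Relative to 1–3 h, the wild-type level at 5–7 h was higher by 1 or more for 113 transcripts, within 1 for 63 and lower by 1 or more for 9. In smaug the numbers were 102, 78 and 5. Efr, an endoplasmic reticulum GDP-fucose transporter, had the deepest dip among the named genes. Its mean went from 12.32 ± 0.19 (SD, n = 4) to 8.35 ± 0.90 (SD, n = 4) and back to only 9.41 in replicates 1 and 2 of wild type. In smaug it went from 10.79 ± 0.45 (SD, n = 3) to 7.49 ± 0.76 (SD, n = 3) and 8.66 ± 0.65 (SD, n = 4).

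Somatic cells were not used in the choice, so the comparison of 1–3 h PGCs with somatic cells of the same age tests where the 185 transcripts stood when PGCs had just formed. More of them were soma-enriched than PGC-enriched. By limma, 65 of 185 (35.1%) were soma-enriched, against 17.5% of all transcripts tested, and 43 (23.2%) were PGC-enriched, against 18.5%. Among the 7606 transcripts that pass the same limit on the wild-type 5–7 h signal, 14% were soma-enriched and 26.2% PGC-enriched. The median difference of PGCs minus somatic cells was -0.25 over the 185, against 0.15 over all transcripts. With each array centred on its median signal, which shifts the median of all transcripts from 0.15 to 0.41, 56 of the 185 were soma-enriched, against 14.6% of all transcripts, and 51 PGC-enriched, against 25.1%. The choice used the 1–3 h PGC samples for its early limit, which keeps out transcripts that start low and rise early.

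The 3 resulting classes had different courses. The 65 soma-enriched transcripts had a median signal of 12.20 in somatic cells, 8.44 in wild-type PGCs at 1–3 h, 7.97 at 3–5 h and 9.89 in replicates 1 and 2 at 5–7 h. At the median, late PGCs stayed below the early somatic level. The smaug medians were 8.16, 7.92 and 9.57. For the 43 PGC-enriched transcripts the somatic median was 6.34, and the wild-type medians were 9.22, 8.25 and 9.97 at the 3 ages. The median of their net change from 1–3 h to replicates 1 and 2 at 5–7 h was 1.05, and 22 of the 43 ended higher by 1 or more. The 77 transcripts that were not called had medians of 9.74 in somatic cells and 9.97, 9.35 and 10.68 in wild-type PGCs. The summed signal of the 11 somatic marker genes is given as a percent of its level in somatic cells. By limma, 8 of the 11 were soma-enriched at 1–3 h, and sim, tll and zen were not called. In wild type it was 22.2% to 27.2% of the somatic level at 3–5 h and 11% to 14.3% in replicates 1 and 2 at 5–7 h, and in smaug 3.99% to 5.79% and then 2.89% to 5.21%. By limma, none of the 11 was called higher and 5 were called lower in the wild-type late step (replicates 1 and 2). In the smaug late step 3 were called higher and 1, tll, lower. The 3 were Cg25C, a collagen chain (2.71), jbug (2.47) and the cadherin gene Cad74A (2.25), which were the 3 most soma-enriched of the 11, with PGCs minus somatic cells at -7.76, -7.56 and -7.64. Their wild-type changes were -0.45, 0.54 and -1.64, the last called lower. Their part in the late rise of the members was not tested. The sums of mesoderm markers (3 genes) and of endoderm and midgut markers (2 genes) were also no higher at 5–7 h in these samples than at 3–5 h, at 7.89% to 11% and 36.5% to 40.3% in wild type. Ectoderm markers (2 genes) were at 8.39% to 11.2% in wild type, and at 11.1% to 16.3% in smaug, and 1 of them, the segment polarity gene en (PGCs minus somatic cells -5.53), was called higher by limma in the smaug late step (1.28) and had -1.02 in wild type, where it was not called. The sum of 3 hemocyte markers was at 52.5% to 52.8% in wild-type replicates 1 and 2 and at 35.4% to 38.6% at 3–5 h, and the median marker was at 1.43% to 1.71% in the former. By limma, cad of the endoderm list was PGC-enriched at 1–3 h (PGCs minus somatic cells 1.51). In that comparison zfh1 (-0.55), shg (-0.25) and crq (0.93) of the mesoderm, ectoderm and hemocyte lists were not called. These sums therefore do not measure somatic cells alone. Of the 11 somatic markers, 2 had a mean log2 signal below 7 in wild-type replicates 1 and 2, and 5 in smaug, at 5–7 h. Fewer cells of a type and less RNA per cell cannot be told apart in such pooled samples.

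**Figure D2:**
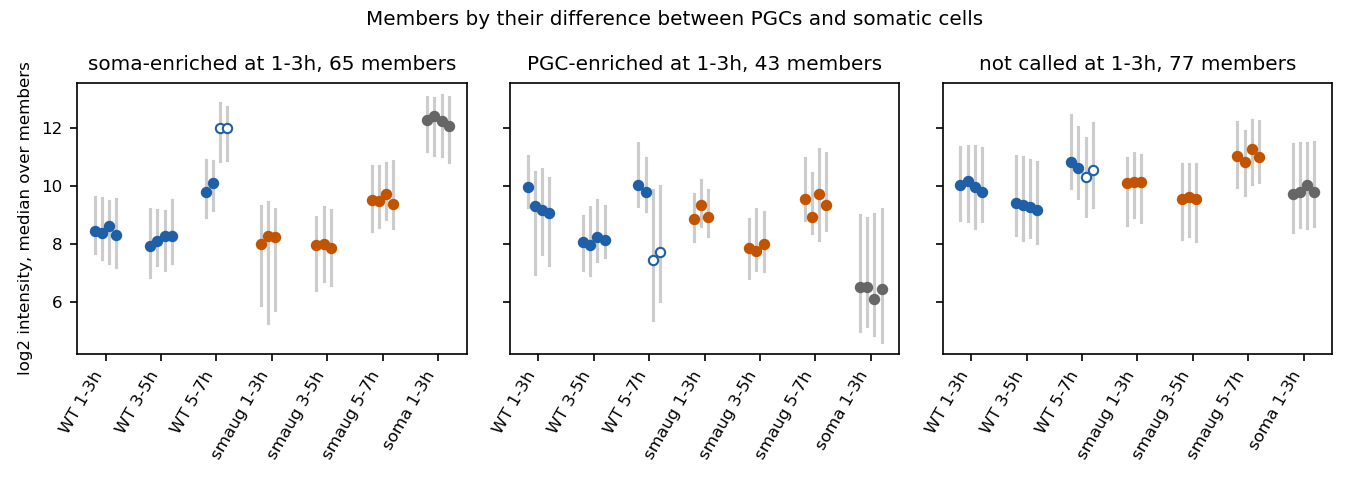
Median log2 intensity (points) and the 2 quartiles (ends of the grey bars) over the members of each class in each of the 26 samples, by group on the x axis, with wild-type PGCs in blue, smaug PGCs in orange and somatic cells in grey. Open points are wild-type 5–7 h replicates 3 and 4, which lie near the somatic samples for the 65 soma-enriched members and below replicates 1 and 2 for the 43 PGC-enriched members.

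Several named members with a large rise and a soma-enriched start encode cell surface proteins or receptors. The Toll-family receptor 18w had log2 signals of 6.13, 6.13, 7.19 and 7.14 in wild-type PGCs at 1–3 h, 5.94, 6.66, 6.43 and 7.11 at 3–5 h, and 9.38 and 10.27 in replicates 1 and 2 at 5–7 h. In smaug PGCs it was 5.82, 4.07 and 4.6, then 4.27, 5.47 and 6.49, then 8.39, 9.08, 8.88 and 8.76. Late samples of both genotypes were thus above all earlier ones, with rises of 3.29 and 3.37. The smaug signals of 4.07 and 4.6 at 1–3 h and 4.27 at 3–5 h were near the control features of the array. In somatic cells 18w was already at 12.95 to 13.14, and PGCs were lower by limma (PGCs minus somatic cells -6.39 ± 0.27 SE, adjusted p = 1.46e-07).

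The leucine-rich repeat membrane protein trn was at 6.24, 7.60, 7.10 and 6.95, then 6.86, 8.58, 8.40 and 7.41, then 8.95 and 9.45 in wild type. In smaug it was at 4.12, 4.40 and 5.14, then 5.27, 4.12 and 4.26, then 8.08, 7.92, 9.77 and 8.51. The smaug rise of 4.02 was larger than the wild-type rise of 1.38. Before that rise, the smaug signals of trn were near the control features, whose medians at 3–5 h were 4.50 to 4.83. All smaug samples before the rise were below all wild-type samples, and the late levels of the 2 genotypes overlapped. Somatic cells had 13.78 to 14.03 (PGCs minus somatic cells -6.90 ± 0.26 SE, limma adjusted p = 8.39e-08).

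Both wgn, a receptor for tumour necrosis factor, and Traf4, an adaptor of such receptors, were chosen. The 4 wgn signals at 3–5 h in wild type were 6.34, 7.37, 5.63 and 5.88, and replicates 1 and 2 at 5–7 h had 8.52 and 9.23. Its smaug signals were 5.04, 4.78 and 4.82 and then 7.07, 6.99, 7.79 and 8.16. The 3–5 h smaug signals of wgn were also near the control features. For Traf4 the wild-type signals were 8.03, 8.58, 9.21 and 8.63 at 3–5 h and 9.81 and 9.96 at 5–7 h. In smaug, Traf4 rose in both steps, from 7.26, 6.06 and 6.32 through 8.01, 9.51 and 8.66 to 10.26, 10.96, 10.79 and 11.12. Both were soma-enriched by limma, wgn by 4.32 ± 0.26 SE (adjusted p = 8.96e-07) and Traf4 by 6.24 ± 0.16 SE (adjusted p = 2.92e-08) on the log2 scale. The ligand of this pathway in the fly, egr, was not chosen: its late change was -0.64 in wild type and 1.53 in smaug, and limma called the second. A further soma-enriched transcript, pxb, rose by 1.83 in wild type and 2.95 in smaug, with a start of 5.61 ± 1.04 (SD, n = 3) in smaug at 3–5 h.

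**Figure D3:**
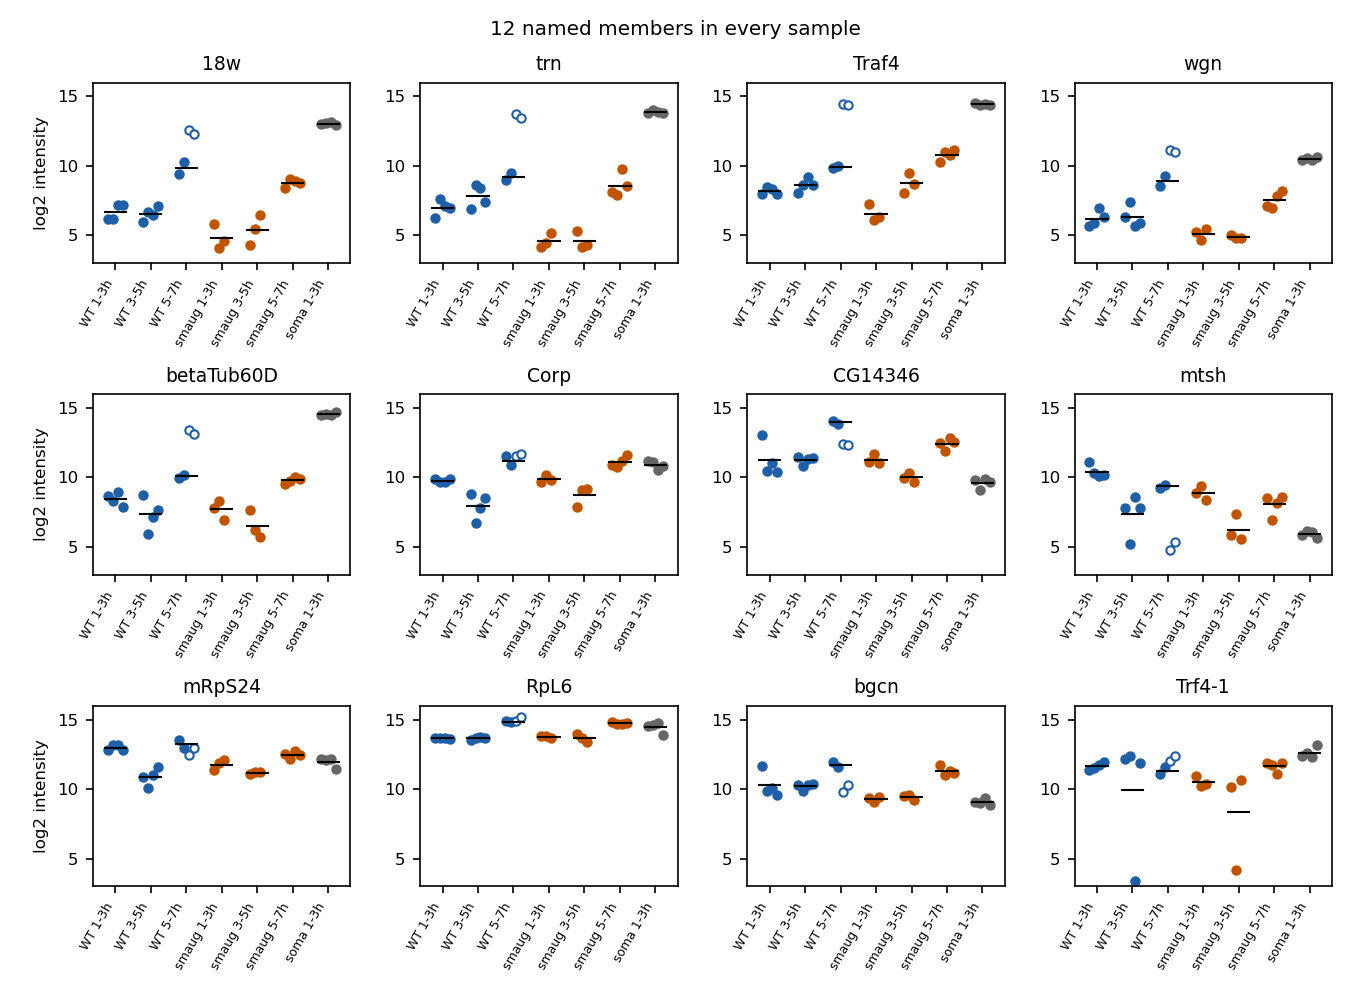
Log2 intensity (y axis) of 12 named members in every sample, by group on the x axis (wild type blue, smaug orange, somatic cells grey), with bars at group means. Open points are wild-type 5–7 h replicates 3 and 4, which the bars leave out, and the late rise of 18w, wgn and Corp separates all late from all 3–5 h samples in both genotypes, whereas the wild-type rise of Trf4-1 rests on 1 low sample at 3–5 h.

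Further soma-enriched genes with a late rise had varied roles. The pair-rule zinc-finger factor opa rose from 8.56, 8.72, 8.33 and 8.68 to 10.26 and 11.12 in wild type and from 8.99, 8.21 and 8.59 to 9.67, 10.16, 10.49 and 10.47 in smaug, with no overlap. In smaug opa had already risen by 1.58 in the earlier step. The tubulin isotype betaTub60D had a rise of 2.71 in wild type and 3.27 in smaug, to late means of 10.07 and 9.79, against 14.58 ± 0.09 (SD, n = 4) in somatic cells. Its 3–5 h samples were scattered, with 8.71, 5.92, 7.17 and 7.66 in wild type and 7.63, 6.21 and 5.74 in smaug, all below the late samples. Oscillin, a glucosamine-6-phosphate isomerase, went from 5.70, 5.68, 6.79 and 6.92 to 9.63 and 9.18 in wild type, and from 7.25, 7.09 and 6.84 to 8.68, 9.32, 8.99 and 8.71 in smaug. CG31775 fell first in wild type, from 9.86, 10.34, 10.34 and 10.72 to 7.71, 7.54, 6.97 and 7.42, and then reached 8.27 and 8.95. In smaug it did not fall, and its late samples (10.59 to 11.02) were all above the late wild-type samples of replicates 1 and 2. One transcript of CG5059, the fly BNIP3 of mitochondrial turnover, rose by 1.65 and 1.81. Asph, an aspartyl beta-hydroxylase, rose by 1.39 and 1.40, CG18549 by 1.78 and 2.05, sprt by 1.40 and 1.40 and CG8468 by 1.11 and 1.44 in wild type and smaug. All 5 were soma-enriched by limma, by 1.87 (CG18549) to 5.04 (CG8468) on the log2 scale.

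The PGC-enriched members with a name included several genes of mitochondria and the germ-line gene bgcn. Members with a deep early dip were mtsh, known for the arrangement of mitochondria in spermatids, and Dic1, a mitochondrial dicarboxylate carrier. Signals of mtsh in wild type went from 11.10, 10.33, 10.11 and 10.16 to 7.78, 5.23, 8.58 and 7.83, and then to 9.23 and 9.48. In smaug they went from 8.86, 9.39 and 8.34 to 5.83, 7.34 and 5.58 and then to 8.53, 6.96, 8.15 and 8.62. Its late level stayed below that of 1–3 h in wild type, and in smaug 1 late sample lay below the highest of 3–5 h. The difference of PGCs minus somatic cells was 4.51 ± 0.24 SE for mtsh (limma adjusted p = 5.02e-07) and 3.83 ± 0.25 SE for the Dic1 transcript (adjusted p = 1.62e-06). CG9399 had 14.57 ± 0.45 (SD, n = 4), 13.57 ± 0.11 (SD, n = 4) and then 14.82 and 14.45 in wild type, and was PGC-enriched by 2.18 ± 0.26 SE (limma adjusted p = 7.12e-05). Alr, a sulfhydryl oxidase of the mitochondrial intermembrane space, followed the same course with a wild-type rise of 1.00 and a smaug rise of 1.30.

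CG14346 rose most among the PGC-enriched named genes, in both of its transcripts on the array. Transcript RA had 13.08, 10.46, 11.04 and 10.42 in wild type at 1–3 h, 11.46, 10.84, 11.33 and 11.37 at 3–5 h and 14.07 and 13.87 in replicates 1 and 2 at 5–7 h. In smaug it had 11.14, 11.67 and 11.04, then 9.98, 10.34 and 9.68, then 12.49, 11.89, 12.84 and 12.53. Transcript RB rose by 3.07 and 2.35, and the 2 transcripts may share probe sequence. The germ-line gene bgcn, which acts with bam in germ cell differentiation, had 11.64, 9.84, 10.06 and 9.57, then 10.27, 9.89, 10.33 and 10.35, then 11.93 and 11.59 in wild type. Its smaug signals were 9.34, 9.06 and 9.45, then 9.51, 9.60 and 9.21, then 11.71, 11, 11.31 and 11.16. SkpC, a relative of the Skp1 subunit of SCF ubiquitin ligases, rose by 2.64 in wild type and by 1.17 in smaug, where 8.89 in 1 late sample overlapped the 8.94 of a 3–5 h sample. In these 3 genes, replicate 1 of wild-type PGCs at 1–3 h was above the mean of the other replicates by 1.81 (bgcn) to 2.44 (CG14346 RA). Without it, bgcn was no longer called PGC-enriched by limma (0.75 ± 0.18 SE, adjusted p = 0.00815, under the limit of 1), whereas CG14346 RA (1.03 ± 0.25 SE) and skpC (1.02 ± 0.19 SE) were. That sample was at least 1 above the mean of the other 3 for 38 of the 185 transcripts (20.5%) and for 6.59% of all transcripts. On the list of germ plasm and piRNA pathway genes, bgcn was the only one chosen: of 32 genes with a named transcript, 1 was called higher and 1 lower in the wild-type late step (replicates 1 and 2), and 1 and 3 in the smaug late step.

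Several members act in protein synthesis. The mitochondrial ribosomal proteins mRpS24, mRpL36, mRpL27 and mRpS2 were all members. In wild type mRpS24 had 12.80, 13.15, 13.16 and 12.79, then 10.89, 10.09, 11.01 and 11.59, then 13.51 and 12.96, so that it dipped and returned. In smaug it had 11.34, 11.88 and 12.10, then 11.07, 11.21 and 11.26, then 12.51, 12.16, 12.72 and 12.44. The wild-type and smaug rises were 2.23 and 1.29 for mRpL36, 2.06 and 1.14 for mRpL27, and 1.36 and 1.02 for mRpS2. Of 45 mitochondrial ribosomal protein genes with a named transcript, limma called 8 higher and 0 lower in the wild-type late step (replicates 1 and 2; 16623 transcripts tested) and 14 higher and 1 lower, mRpS5, in smaug. Over the 4759 genes with a named transcript, 4.22% and 7.5% were called higher in these steps, and 5.61% and 8.8% lower. With all 4 wild-type replicates, 4 of the 45 were called higher and 0 lower, against 2.69% and 2.92% of those genes. The same shares apply to the gene lists above and below. Names came from the study's own lists on these samples, so named genes are not a neutral background.

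Among 75 cytoplasmic ribosomal protein genes, each read by its transcript of highest mean signal, 1 was called higher and 0 lower in wild type, and 0 and 1 in smaug. The 3 that were members, RpL6, RpL17 and RpS7, entered through single transcripts. RpL6 transcript RA rose in a narrow range, from 13.53, 13.70, 13.76 and 13.66 to 14.87 and 14.85 in wild type and from 14, 13.66 and 13.42 to 14.86, 14.69, 14.72 and 14.75 in smaug. Ribosome assembly was represented by Nop60B, the pseudouridine synthase of rRNA, by the nucleolar GTPase Non1 (CG8801) and by nclb (CG6751), with wild-type rises of 1.22, 1.09 and 1.03 and smaug rises of 1.13, 1.09 and 1.57. Of 32 genes on the ribosome biogenesis list, 3 were called higher in wild type (replicates 1 and 2), 8 with all 4 replicates and 8 in smaug, and none lower. In the same order, 4.22%, 2.69% and 7.5% of all named genes were higher, and 5.61%, 2.92% and 8.8% lower. The list's median late change was 0.44 in wild type and 0.75 in smaug, against medians of -0.02 and 0.08 over all named genes. Genes of tRNA biology were AIMP2 (CG12304), a scaffold of the multi-tRNA-synthetase complex, with rises of 1.75 and 1.68, and the tRNA methyltransferase Trm1 (CG6388), with 1.88 and 1.67.

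Further members act in mitochondria. ATPsyn-beta, the beta subunit of ATP synthase, entered with transcript RB at 12.58, 12.34, 13.01 and 12.95, then 14.14 and 13.89 in wild type, and 13.15, 13.30 and 12.97, then 14.40, 14.41, 14.31 and 14.45 in smaug. The late samples were above all 3–5 h samples in either genotype. Ant2, an adenine nucleotide translocase, rose by 1.33 and 1.28. The neighbouring mitochondrial carrier genes Tyler and Shawn rose by 1.55 and 1.43 and by 1.63 and 1.87. Their late samples were uneven in a like way: in smaug replicate 3 was highest for both, at 11.50 for Tyler and 12.48 for Shawn, against 9.84 to 10.90 and 9.87 to 11.34 in the others. The mitochondrial phosphatase PTPMT1 (Plip) rose by 1.12 and 1.34. On the list of respiratory chain and ATP synthase genes, 4 of 19 were called higher and 0 lower in wild type (replicates 1 and 2), and 2 and 1 in smaug. Over all named genes the shares were 4.22% and 5.61%, then 7.5% and 8.8%.

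Corp, a p53 target, had a rise of 3.24 in wild type and 2.39 in smaug. It dipped from 9.89, 9.65, 9.65 and 9.92 to 8.83, 6.74, 7.81 and 8.5 and then reached 11.52 and 10.91 in wild type. In smaug it went from 9.68, 10.15 and 9.83 to 7.90, 9.08 and 9.17, and then to 10.91, 10.77, 11.16 and 11.60. Late samples lay above both earlier time points in each genotype. A transcript of the caspase Dredd (RF) dipped and returned, from 10.08 to 8.31 and 10.09 on the mean in wild type and from 9.36 to 8.46 and 10.48 in smaug. Of 13 genes on the list of cell death and p53 targets, limma called only Corp higher in wild type (replicates 1 and 2), with 0 lower. In smaug it called Corp, egr and p53 higher and rpr, scyl and chrb lower, where the last 2 are stress genes and rpr a trigger of apoptosis. The autophagy enzyme Atg7 rose by 1.38 and 1.41 after an early fall. Prosbeta3, a subunit of the proteasome core, rose by 1.26 and 1.34. On the proteasome and ubiquitin list, 5 of 29 genes were called higher and 0 lower in each genotype. Prosbeta3 was among the 5 in both. Over all named genes, 4.22% were higher and 5.61% lower in wild type (replicates 1 and 2), and 7.5% and 8.8% in smaug.

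Of the transcription machinery, e(y)1, which encodes Taf9 of TFIID and SAGA, rose from 12.24, 11.66, 11.99 and 12.29 to 13.45 and 12.99 in wild type and from 11.78, 10.63 and 10.81 to 12.50, 12.20, 13.45 and 13.20 in smaug. It was the only member among 37 genes for RNA polymerase II, TFIID and Mediator, of which 4 were called higher and 3 lower in wild type (replicates 1 and 2), and 2 and 0 in smaug. Only e(y)1 was called higher in both. For this and the lists that follow, the shares over all named genes were 4.22% and 5.61%, then 7.5% and 8.8% in smaug. The factor ewg, related to human NRF1, entered with transcripts RA (rises of 1.38 and 1.19) and RE (1.34 and 1.06), and one transcript of the histone acetyltransferase Hat1 (CG2051) with 1.02 and 1.33. Other members were Psf3 of the GINS replication complex (1.59 and 1.83), the Rag GTPase gene RagA (1.48 and 1.34), Rcd-1 (CG14213) of the CCR4-NOT deadenylase (2.02 and 1.47) and PIG-A (CG6401) of glycolipid anchor synthesis (1.61 and 1.43). On the chromatin list of 26 genes, which includes ewg, 4 were called higher and 0 lower in wild type (replicates 1 and 2), and 2 and 2 in smaug. The other lists held no member. In the same order, the calls were 2 and 0, then 1 and 2, for 23 spliceosome genes, and 1 and 0, then 2 and 1, for the 23 genes of a translation list. That list also holds Srp54, Srp68, Srp72, Trp1 and La, which are not translation factors. Its wild-type call was Trp1, and its smaug calls were Srp72 and eIF2B-alpha, higher, and eIF-4B, lower. For 29 genes of DNA replication and repair the calls were 1 and 2, then 1 and 2. For 20 genes of spindle, kinetochore and cohesin the calls were 3 and 0, then 0 and 0. The Stellate list of 6 genes, which includes the casein kinase II genes CkIIalpha and CkIIbeta, had 2 and 0, then 0 and 0. Its 2 calls were Ste12DOR and Ste:CG33236.

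In 3 members the 3–5 h samples had an SD of 3 or more in both genotypes, with 1 sample far below the others. One is Trf4-1, which encodes a non-canonical poly(A) polymerase. At 3–5 h its wild-type signals were 12.19, 12.39, 3.37 and 11.85 and its smaug signals 10.12, 4.18 and 10.69. At 5–7 h they were 11.06 and 11.59 in wild type and 11.91, 11.72, 11.08 and 11.91 in smaug. Without the low sample, the late wild-type signals were below all those at 3–5 h, whereas the late smaug signals were above all of theirs. Transcript RC of the inner membrane protein Mitofilin (CG6455) had 13.14, 12.97, 12.6 and 4.2 in wild type and 12.94, 12.76 and 4.09 in smaug at 3–5 h. Its late signals, 11.93 and 11.74 and then 11.52 to 12.50, were below all but those low samples. The other such member has no name. With group medians in place of means, an alternative chosen after seeing the data, 183 transcripts met the conditions, of which 162 were among the 185.

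For genes with several transcripts on the array, mostly 1 transcript met the conditions and the others did not. Of the 75 named genes, 15 had more than 1 named transcript, 39 in all. The 18 that were members rose by choice, and of the other 21, 2 rose by at least 1 in wild type, 1 in smaug and none in both. RpL17 transcript RD rose from 8.10 to 10.17 in wild type and from 8.36 to 10.03 in smaug, while RA, RB and RC changed by 0.09 to 0.65 and 0.43 to 0.86. RpS7 transcript RC rose by 1.05 and 2.14, RA by -0.13 and 0.74. Transcripts of 1 gene went opposite ways in CG5059, where RB rose by 1.65 and 1.81 and RC fell by 1.04 and 1.05. They did so in CG11779 in wild type, where RD changed by 1.92 and RA and RC by -0.92 and -0.69. The signal of a transcript depends on its probes, and shared exons cannot be assigned to 1 transcript, so these are differences between probe sets. Some of the other transcripts were very bright, such as ATPsyn-beta RA (15.63 at 3–5 h). In 5 of the 15 genes a member was the brightest transcript at 5–7 h. Whether brightness limited a rise was not tested.

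**Figure D4:**
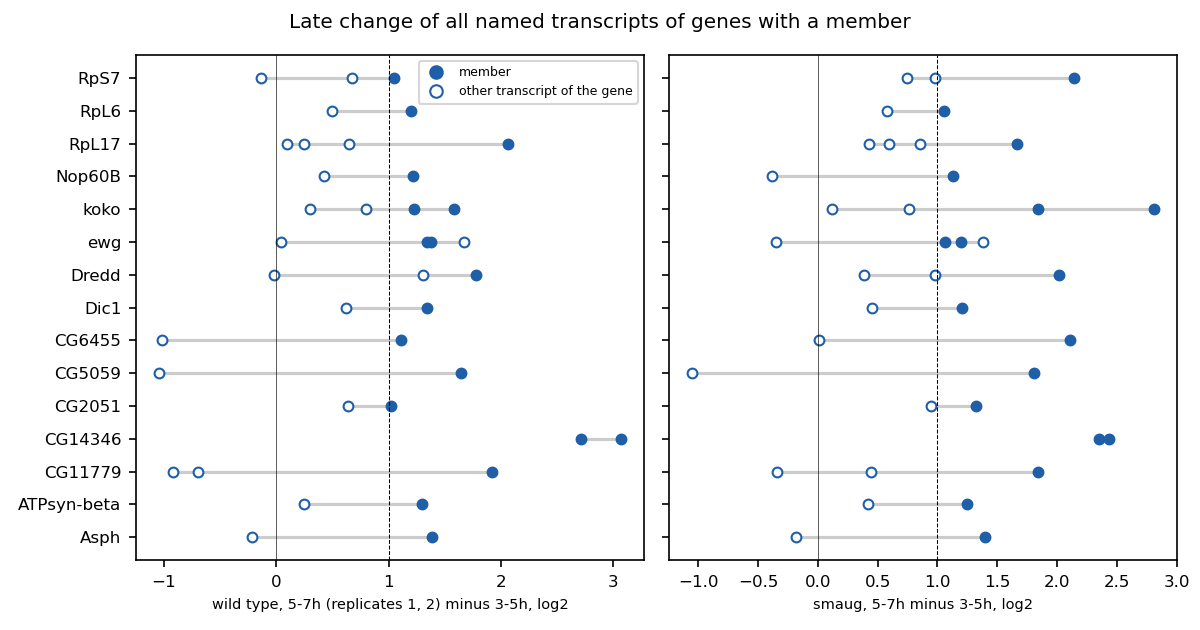
Late change in log2 units (x axes) of every named transcript of the 15 member genes with more than 1 named transcript (rows), in wild type with replicates 1 and 2 (left) and in smaug (right). Filled points are members, which lie beyond the dashed line at 1 by choice, and none of the 21 open points, the other transcripts, lies beyond it in both panels.

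The smaug PGCs at 1–3 h were not used in the choice, and their comparison with wild type of the same age asks whether both genotypes started at the same level. The wild-type 1–3 h samples were used, for the early limit, which keeps out transcripts that start low in wild type and rise early. That limit can favour calls of lower in smaug, and the size of this effect was not tested. Of the 185 transcripts, 35 (18.9%) were lower in smaug by limma and 13 (7.03%) higher, against 6.0% and 7.46% of all transcripts tested. Among the 7606 transcripts above the signal limit, 8.9% were lower and 9.58% higher. The median difference was -0.12 over the 185 and -0.01 over all. Soma-enriched members made up 24 of the 35 lower ones, PGC-enriched members 8 and those not called 3. The classes use the same wild-type 1–3 h samples, so this split is a description. Shares lower in smaug over all transcripts of each class are not given. Lower in smaug were trn (-2.42 ± 0.37 SE, limma adjusted p = 0.00432), CG31775 (-1.95 ± 0.25 SE, adjusted p = 0.00253) and 18w (-1.82 ± 0.47 SE, adjusted p = 0.0308). Higher in smaug by limma were Oscillin (1.68 ± 0.32 SE, adjusted p = 0.0104), mRpS2 (1.15 ± 0.18 SE, adjusted p = 0.00488) and CG6927 (1.13 ± 0.29 SE, adjusted p = 0.0277). The somatic marker sum was 4.06% to 6.85% of the somatic level in smaug and 8.99% to 11.8% in wild type at this time, and its part in these differences was not tested. Without replicate 3 of smaug the lower count was 22, and without replicate 1 of wild type, the sample high in bgcn and CG14346, the higher count was 23.

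Replicates 3 and 4 of wild-type PGCs at 5–7 h gave a second look at the late level, by comparison with 1–3 h PGCs. By limma, 69 of the 185 (37.3%) were higher and 17 (9.19%) lower, against 13.1% and 14.6% of all transcripts tested. Among the 7606 transcripts above the signal limit, 15.2% were higher and 23.5% lower. The median change was 0.70 over the 185, against -0.03 over all. The choice used the 1–3 h samples for its early limit, and the size of its effect on these counts was not tested. The calls are given by class as a description, since the somatic comparison uses the same 1–3 h PGC samples. Of the 65 soma-enriched members 53 were higher and 0 lower, of the 43 PGC-enriched 0 were higher and 14 lower, and of the 77 not called 16 were higher and 3 lower. Over all transcripts, 49.1% of the soma-enriched were higher and 1.34% lower, 0.682% of the PGC-enriched were higher and 55.6% lower, and of those not called 6.83% were higher and 6.38% lower. Somatic markers were at 66.8% to 68% of the somatic level in both, and their part in these changes was not tested. The soma-enriched 18w, trn, Traf4 and pxb reached 12.32 to 14.45 in these samples, far above replicates 1 and 2. The PGC-enriched Dic1 was at 5.46 and 5.50, below the 7.19 to 7.93 of the 3–5 h samples. For mtsh they had 4.74 and 5.36, where the 3–5 h samples had 5.23 to 8.58. The 3–5 h samples were used in the choice, so a comparison with them is a description. The mean of replicates 3 and 4 was above the 3–5 h mean by 1 or more for 94 of the 185. It was below by 1 or more for 21, against 17.1% above and 19.4% below over all transcripts. Among the 43 PGC-enriched members, 7 were above and 15 below by 1 or more.

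Among members that were not called between PGCs and somatic cells, several were higher in replicates 3 and 4. RpL6 RA was at 14.89 and 15.16, next to 14.87 and 14.85 in replicates 1 and 2, and was higher than at 1–3 h by 1.37 ± 0.21 SE (limma adjusted p = 0.00376). Nop60B (1.16 ± 0.26 SE, adjusted p = 0.0158), mRpL27 (1.78 ± 0.23 SE, adjusted p = 0.00212), mRpL36 (1.21 ± 0.22 SE, adjusted p = 0.008), e(y)1 (2.72 ± 0.26 SE, adjusted p = 0.000691) and PTPMT1 (1.97 ± 0.25 SE, adjusted p = 0.00199) were also higher in these 2 samples by limma. Of the PGC-enriched genes, these samples had for bgcn 9.80 and 10.33, in the range of the earlier samples, and for CG14346 RA 12.39 and 12.32, above the 3–5 h samples and below replicates 1 and 2.

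Some named members were neighbours in the genome. In the RefSeq annotation of Release 6 of the fly genome, which placed 74 of the 75 genes, Tyler and Shawn were adjacent protein-coding genes on the X chromosome, and CG14213 (Rcd-1) followed with 8 protein-coding genes between. On the same chromosome 4 protein-coding genes lay between Alr and skpC. On 3R, RagA and Prosbeta3 had 6 such genes between them. How many neighbouring pairs 75 genes drawn by chance would give was not tested.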

How the data were processed

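RNA of sorted cells was amplified with the WT-Ovation Pico system and hybridized to custom NimbleGen arrays, scanned with GenePix and read with Nimblescan. The authors summarised probes with RMA and quantile normalization in ArrayStar 3 and deposited linear intensity values, which were used here as log2. Quantile normalization gives every array the same distribution, so a change in total RNA per cell is not visible. Mean log2 signals were 8.18 to 8.25 per array and 20 control features had medians of 4.06 to 4.83, and arrays give no read depth.

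Groups came from the sample labels. limma 3.58.1 in R 4.3.3 was fitted over all 16623 transcripts for each pair of groups, with Benjamini-Hochberg adjustment, and called adjusted p up to 0.05 with more than 2-fold. Replicates are labelled biological. The code was tested on simulated data.

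The deposited tables name features by transcript only. Names came from transcript lists of the same study, by matching values to 6 significant digits (5337 transcripts of 4759 genes, 0 conflicts). Those lists favour PGC-enriched genes (36.3% of named genes), and no other value of them was used.

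Members and gene lists were chosen with earlier results of these data known. Genes were named by a rule on size of rise, level, difference between genotypes, change in each tested comparison, list membership and nearness to a threshold, or where grouped by role. Each listed gene was read by its transcript with the highest mean signal. Lists of nerve, trachea and yolk markers had 0 named genes. Other normalization, centring, fits, weights, filters and thresholds and each replicate left out were tried as alternatives, and group medians were added after seeing the data.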

Additional observations from a re-analysis of the deposited data

Results flagged for a closer look

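Among 115 pairs of a named gene and a group of 4 samples, 9 held a sample far from the others (log2 intensity). Chance gives about 1 in 20 such pairs. Replicate 4 of the somatic cells was the far sample for 3 genes: mRpS24 (11.43, others 12.10 to 12.19), ATPsyn-beta (13.28, others 14.06 to 14.07) and mRpS2 (9.84, others 9.40 to 9.46). In wild-type PGCs at 3–5 h, Trf4-1 was at 3.37 in replicate 3, where the others had 11.85 to 12.39, and CG9399 at 13.41 in replicate 1, where the others had 13.61 to 13.65. At 1–3 h, Alr was at 13.49 in replicate 1 (others 13.98 to 14.04) and CG6927 at 10.44 in replicate 4 (others 11.44 to 11.50). At 5–7 h, RpL6 was at 15.16 in wild-type replicate 4 (others 14.85 to 14.89) and mRpS2 at 10.96 in smaug replicate 2 (others 11.54 to 11.63).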

How the results depend on the processing

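The counts of soma-enriched and PGC-enriched members stayed within 1.5 times their value under every alternative run. For the smaug comparison at 1–3 h, the 13 higher became 8 with all groups in 1 fit and ranged from 9 to 23 with each replicate left out, the highest without replicate 1 of wild type. The 35 lower ranged from 22, without smaug replicate 3, to 35. For wild-type 5–7 h replicates 3 and 4, the 17 lower became 26 with all groups in 1 fit and ranged from 12 to 27 with 1 replicate left out, the highest without replicate 4. In the late step, which chose the members, the 45 called with all 4 wild-type replicates became 107 with all groups in 1 fit and 97 with array weights, and ranged from 0 to 58 with 1 replicate left out. It was 0 without any 1 of the 3–5 h replicates (94 to 103 at an unadjusted p under 0.05 by limma), 25 without replicate 1 and 13 without replicate 4 of 5–7 h. The 132 called with replicates 1 and 2 ranged from 0, without replicate 1 (128 at an unadjusted p under 0.05 by limma), to 110, and were 78 without replicate 2. A fit without replicate 1 or 2 takes the spread of the lone sample from the other group. The cause of these shifts was not tested.

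Replicate numbers did not pair the samples: deviations of same-numbered samples correlated at -0.09 to 0.14. With the number as a replicate block, the counts were 6 higher and 20 lower in smaug at 1–3 h, 30 higher and 5 lower in replicates 3 and 4, and in the late steps 0 with 4 wild-type replicates, 0 with replicates 1 and 2, and 14 in smaug (105, 160 and 168 at an unadjusted p under 0.05 by limma).

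The conditions of the choice set its size: 282 transcripts with all 4 wild-type 5–7 h replicates, of which 116 were among the 185, 53 with rises of at least 1.5, 598 with rises of at least 0.6 and 328 with no minimum level. Of the tests of single named genes under alternatives, 505 kept their side of the threshold, 36 lost it, 8 passed it and none reversed. Quantile-normalized signals and few arrays per group limit what small differences can be detected.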
